A study of Homo sapiens with 9 samples.

Results

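The 39 HOX genes of the human genome's 4 HOX clusters were followed through 13 days of stem cell differentiation with an activator of the stress sensor ATF6 or its inactive analogue. Members were all rows of the deposited count table whose symbol was HOXA, HOXB, HOXC or HOXD followed by a number, which gave 39 of 27730 symbols: 11 in HOXA on chromosome 7, 10 in HOXB on chromosome 17, 9 in HOXC on chromosome 12 and 9 in HOXD on chromosome 2. HUES9, a human embryonic stem cell line, was kept on mitomycin-treated mouse embryonic fibroblasts, spun into embryoid bodies without FGF2, and later plated on Matrigel. The groups were day 13 cells given 10 µM AA147, an ATF6 activator, day 13 cells given 10 µM RP22, which the labels call its inactive analogue, and day 1 cells with no agent. Each group had 3 libraries from separate experiments per the labels. All came from 1 cell line, and before embryoid body formation all cells received a Stemgent small molecule whose full name the labels do not give. Cells given solvent alone were not analysed here. AA147 against RP22 asks what the ATF6 activator did to HOX expression, and each against day 1 asks what changed during differentiation.

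HOX proteins are homeodomain transcription factors that give cells their position along the head-to-tail axis. Within a cluster the genes are numbered by paralog, from 1 at the end expressed earliest and farthest forward, in the hindbrain, to 13 at the end expressed latest and farthest back. In the embryo the clusters open in that order under retinoic acid, WNT and FGF signals and the caudal (CDX) factors, while Polycomb proteins keep unused genes silent. Paralogs 1 to 4 are called anterior here (12 genes), 5 to 8 central (11 genes) and 9 to 13 posterior (16 genes).

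Libraries held 9223039 to 10118267 reads, so the 3 reads that a count of 0 allows come to 0.297 to 0.325 CPM. Pluripotency markers fitted the day 1 label: the list of 7 (POU5F1, NANOG and others) summed to 5655 to 6399 CPM (reads scaled to a common library size) there. Against that, the list summed to 126 to 158 CPM with AA147 and 375 to 565 CPM with RP22. At day 1, 11 fibroblast genes summed to 333 to 418 CPM, and reads from mouse feeder cells cannot be told apart from human ones in these tables. RP22 replicate 1 stood apart from replicates 2 and 3: its fibroblast genes summed to 22170 CPM against 6440 and 7005 CPM, and its forebrain and midbrain genes to 94.1 CPM against 432 and 442 CPM. Values that rest most on it are also given without it.

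HOX transcripts were nearly absent at day 1, and at day 13 they were spread over more members with RP22 than with AA147. Anterior genes held the largest share of HOX reads with both compounds. That share was 72.6%, 97.3% and 97.4% of HOX reads in the AA147 libraries and 49.8%, 66.8% and 67.1% in the RP22 libraries. On the length-corrected RPKM scale, central genes led in RP22 replicate 1, at 48.4% against 44.3% for anterior genes. Anterior genes led on that scale in RP22 replicates 2 and 3, at 64.0% and 65.7%. The 39 members together had 587, 367 and 537 reads in the AA147 libraries, 2584, 898 and 1072 in the RP22 libraries, and 22, 12 and 3 in the day 1 libraries. No AA147 library reached the lowest RP22 library, and RP22 replicate 1 had more HOX reads than the other 2 RP22 libraries combined. Scaled to library composition (TMM), the HOX sum averaged 65.1 CPM with AA147 and 138 CPM with RP22, or 85.7 CPM over RP22 replicates 2 and 3. Reads were found for 26 members with AA147, 37 with RP22 and 7 at day 1, and in all 3 libraries of the group for 8, 25 and 1 of them. HOXA6 and HOXC12 had no read in any library. These are bulk cultures, in which fewer cells of a type and less RNA per cell cannot be told apart.

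**Figure D1:**
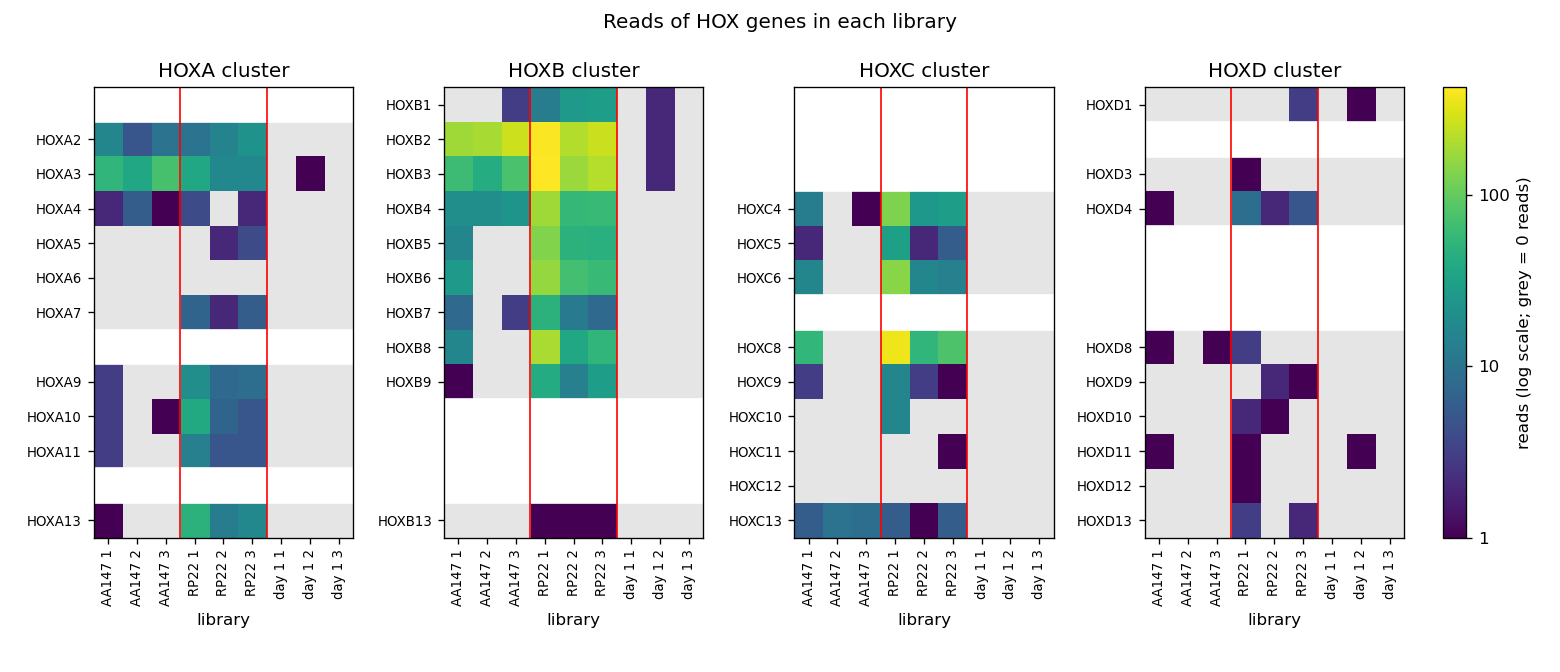
Reads of the HOX genes reported here (rows, by paralog number) in each of the 9 libraries (columns, AA147, RP22 and day 1, separated by red lines), 1 panel per cluster, with colour on a log scale, grey for 0 reads and white where no gene is shown. Reads at day 1 are few, paralogs 4 to 9 of HOXB, 4 to 8 of HOXC and 9 to 13 of HOXA hold reads in every RP22 library, and with AA147 replicates 2 and 3 are mostly grey below paralog 4.

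Along the clusters, AA147 libraries held reads chiefly at the anterior end. Anterior genes took 426, 357 and 523 reads with AA147, which is 72.6%, 97.3% and 97.4% of HOX reads (95% Clopper-Pearson intervals 68.8 to 76.1%, 95 to 98.7% and 95.7 to 98.6%). With RP22 they took 1286, 600 and 719 reads, or 49.8%, 66.8% and 67.1% (47.8 to 51.7%, 63.6 to 69.9% and 64.2 to 69.9%). The anterior share was thus higher in every AA147 library than in any RP22 library, and these intervals cover counting error only.

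Central genes had 140, 0 and 4 reads with AA147, 1089, 243 and 276 with RP22 and 0 in each day 1 library. AA147 replicate 1 alone held 97.2% of the central reads of its group, and 6 of the 8 central genes read with AA147 were read in that library only. Posterior genes had 21, 10 and 10 reads with AA147, 209, 55 and 77 with RP22, and 0, 1 and 0 at day 1. HOXC13 supplied 6, 10 and 9 of those posterior AA147 reads, so the other 15 posterior genes together had 16 reads over the 3 AA147 libraries.

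By paralog number, on the TMM-scaled CPM scale, paralog 2 summed to 25.7, 27.2 and 34.9 CPM with AA147 and 39.4, 20.4 and 23.7 CPM with RP22. Paralog 3 summed to 15.3, 10.9 and 18.6 CPM with AA147 and 43.3, 17.2 and 19.6 CPM with RP22. Both overlapped between the compounds, and the anterior class as a whole averaged 57.0 CPM with AA147, against 78.3 CPM with RP22 and 57.4 CPM over RP22 replicates 2 and 3. Paralog 4 summed to 4.72, 3.59 and 3.15 CPM with AA147 and 30.1, 7.56 and 7.94 CPM with RP22, without overlap.

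Farther along, paralog 5 summed to 2.36, 0 and 0 CPM with AA147 and 15.5, 4.83 and 4.68 CPM with RP22. Paralog 6 summed to 5.51, 0 and 0 CPM with AA147 and 28.7, 7.83 and 6.11 CPM with RP22, and paralog 7 to 1.05, 0 and 0.38 CPM with AA147 and 5.23, 1.27 and 1.17 CPM with RP22. These 3 did not overlap, although replicate 1 was the highest library of both compounds. Paralog 8, at 9.44, 0 and 0.13 CPM with AA147 and 52.3, 8.19 and 11.1 CPM with RP22, overlapped through AA147 replicate 1. Paralog 9 summed to 0.92, 0 and 0 CPM with AA147 and 7.19, 2.46 and 3.35 CPM with RP22, without overlap. Paralog 10 did not overlap either, at 0 to 0.39 CPM with AA147 and 0.42 to 5.33 CPM with RP22, whereas paralogs 11, 12 and 13 did.

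By cluster, HOXB had the most reads in every AA147 and RP22 library. HOXB reads numbered 330, 254 and 371 with AA147 and 1610, 646 and 763 with RP22. HOXA reads numbered 159, 103 and 155 with AA147 and 247, 147 and 162 with RP22. HOXC reads numbered 95, 10 and 10 with AA147 and 707, 100 and 136 with RP22, and HOXD reads only 3, 0 and 1 with AA147 and 20, 5 and 11 with RP22. After TMM scaling HOXB and HOXD lay lower in every AA147 library than in any RP22 library. HOXA overlapped, and so did HOXC, whose AA147 replicate 1 reached 12.5 CPM against 9.11 and 11.4 CPM in RP22 replicates 2 and 3.

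On the length-corrected RPKM scale, which lets genes be compared, HOXB2 was the most abundant member with both compounds, at 13.4 ± 2.36 RPKM with AA147 and 18.4 ± 6.60 RPKM with RP22 (SD, n = 3 each). Lower with AA147 were HOXA3 at 1.68 ± 0.48, HOXB3 at 1.67 ± 0.30 and HOXB4 at 1.08 ± 0.04 RPKM. HOXA3 and HOXB3 lay within their spread, and HOXB4 lay below HOXB3 by more than the sum of their SDs. Next with RP22 came HOXC8 at 7.42 ± 7.78, HOXB6 at 6.86 ± 5.46, HOXB3 at 6.40 ± 3.46 and HOXB8 at 5.19 ± 4.77 RPKM. None of these 5 genes, HOXB2 included, differed from its neighbour by more than the sum of their SDs. Within each RP22 library, however, HOXB2 was the highest of the 5, at 25.9, 13.6 and 15.7 RPKM. HOXC8 owed its place to RP22 replicate 1, with 16.4, 2.48 and 3.41 RPKM, and over replicates 2 and 3 it averaged 2.94 RPKM, below HOXB3 at 4.41 and HOXB6 at 3.74 RPKM. The deposited RPKM of HOXB3, HOXB6, HOXC4 and HOXC6 did not use 1 fixed gene length across libraries, so their place in the order is less firm.

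**Figure D2:**
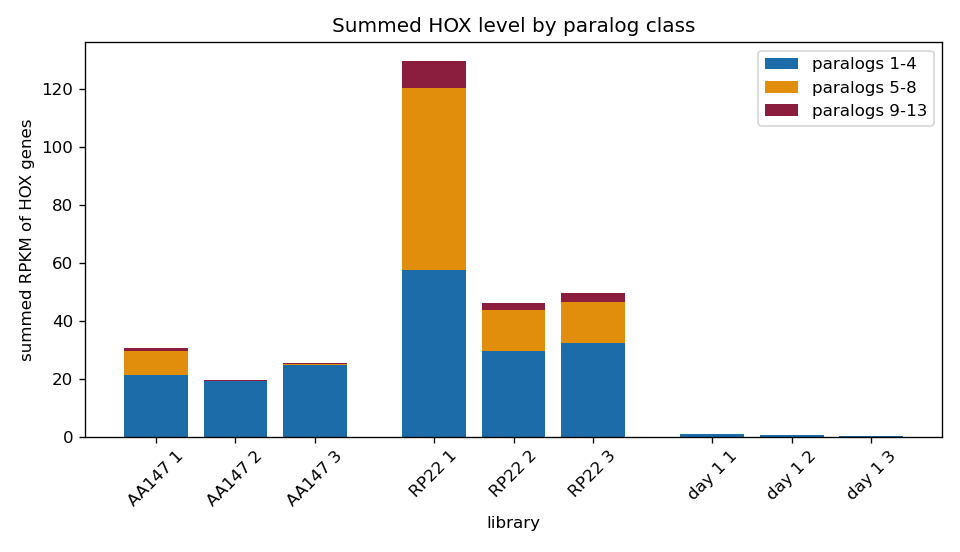
Summed RPKM of the HOX genes in each library (bars, y axis), stacked by paralog class. These sums are not TMM-scaled, unlike the CPM sums in the text. The AA147 libraries reach 30.5, 19.5 and 25.5 RPKM and are mostly paralogs 1 to 4, the RP22 libraries reach 129.8, 46.3 and 49.5 RPKM with a large share of paralogs 5 to 8, and the day 1 libraries stay under 1 RPKM.

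The DNA before the genes is shown for 4 members that differ in outcome between the compounds and in sequence. RefSeq promoter windows (GRCh38.p14, 250 bases before to 50 after a start) were found for 20 of the 39 members, 27 windows in all. Capitals mark matches, on either strand, to TTTATNG, a sequence bound by caudal factors, or to TGATNNAT, a sequence bound by PBX and HOX proteins together. The lines give HOXA2 (chr7:27102634-27102933, minus strand), HOXB1 (chr17:48530962-48531261, minus strand), HOXC4 (chr12:54016638-54016937, plus strand, a window shared with HOXC5) and HOXA13 (chr7:27200042-27200341, minus strand).
HOXA2: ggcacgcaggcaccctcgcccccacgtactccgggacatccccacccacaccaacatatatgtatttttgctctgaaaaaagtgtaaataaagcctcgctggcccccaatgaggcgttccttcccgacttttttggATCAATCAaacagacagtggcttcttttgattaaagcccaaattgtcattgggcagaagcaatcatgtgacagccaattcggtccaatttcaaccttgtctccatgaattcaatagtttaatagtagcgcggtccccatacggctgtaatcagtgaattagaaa
HOXB1: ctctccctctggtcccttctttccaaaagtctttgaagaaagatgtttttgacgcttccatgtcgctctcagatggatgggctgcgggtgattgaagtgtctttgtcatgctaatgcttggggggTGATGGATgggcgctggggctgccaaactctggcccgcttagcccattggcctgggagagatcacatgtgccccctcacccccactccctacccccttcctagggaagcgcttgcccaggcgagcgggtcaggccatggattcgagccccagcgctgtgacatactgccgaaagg
HOXC4: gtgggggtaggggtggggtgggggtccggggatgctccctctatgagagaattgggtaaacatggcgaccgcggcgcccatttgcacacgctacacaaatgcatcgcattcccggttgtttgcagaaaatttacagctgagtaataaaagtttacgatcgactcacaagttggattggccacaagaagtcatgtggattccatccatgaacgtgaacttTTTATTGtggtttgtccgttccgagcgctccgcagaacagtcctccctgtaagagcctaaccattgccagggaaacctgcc
HOXA13: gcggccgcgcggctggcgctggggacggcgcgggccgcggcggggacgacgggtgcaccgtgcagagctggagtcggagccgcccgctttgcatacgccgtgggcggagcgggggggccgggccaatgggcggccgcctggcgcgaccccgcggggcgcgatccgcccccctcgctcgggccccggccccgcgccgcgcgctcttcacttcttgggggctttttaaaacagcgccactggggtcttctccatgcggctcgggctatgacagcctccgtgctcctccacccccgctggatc
In the mouse, HOXB1 acts with PBX on its own promoter region to hold its expression in the hindbrain. The HOXB1 and HOXA2 windows each held a PBX-HOX match and the HOXC4 window a caudal match, while the HOXA13 window held neither and had 44 CpG sites, against a median of 22.5 in distinct HOX windows and 14 in all distinct windows. The HOX windows at distinct positions numbered 26. The caudal letters were in 6 of them (23.1%), those of HOXA3 (in 2 windows), HOXA9, HOXA10, HOXC4 and HOXC5 (1 shared window) and HOXD8, against 9.75% of 34943 distinct windows of all genes. The PBX-HOX letters were in 3 of 26 (11.5%), those of HOXA2, HOXB1 and HOXD11, against 7.42%. The ATF6 element CCAAT, 9 bases and CCACG was in 0 of 26 HOX windows and in 27 of all distinct windows (0.077%). An element this rare would be missing from nearly any 26 windows, so that 0 says nothing about HOX genes. A match describes letters in these windows only. Members with no entry included HOXA5, HOXB2 to HOXB9, HOXB13, HOXC6, HOXC8 to HOXC13 and HOXD9.

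AA147 against RP22 compared both compounds at 10 µM on day 13. In this comparison a gene said to fall or rise was lower or higher with AA147 than with RP22. No change over time is meant. After the filter on low counts, which asks for about 10 reads in at least 3 libraries, 15 members could be tested, and edgeR's quasi-likelihood test with Benjamini-Hochberg adjustment over all genes called 1 higher and 6 lower with AA147 at an adjusted p under 0.05. Among all 14293 genes tested, 29.8% were called higher and 32.2% lower (62% in either direction). HOXA3 was the higher gene, and HOXB1, HOXB3, HOXB4, HOXB5, HOXB9 and HOXA13 were the lower ones. The median log2 fold change of the 15 was -2.97, against -0.03 over all genes. Of these members, 2 had every AA147 library above every RP22 library, where 33.4% of all genes did, and 9 had every one below, where 36.5% did. Only 5 of the 15, HOXA3, HOXB2, HOXB3 and HOXB4 among them, had 10 reads in every AA147 library. Of the other 10, HOXA2 was read with both compounds. The rest passed the filter through RP22 and could hardly have come out higher. In TMM scaling the median of all genes was near 0. Scaling by library totals alone moved it to -0.49 and changed the split of all calls from 4264 higher and 4600 lower to 1897 higher and 8527 lower, with 1 HOX gene higher and 9 lower.

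Anterior genes went in different directions. HOXA3, which in the mouse patterns the pharyngeal arches, thymus and parathyroid, had 54, 37 and 73 reads with AA147, 38, 17 and 17 with RP22, and 0, 1 and 0 at day 1. Once scaled to library composition, every AA147 library lay above every RP22 library. Its level was 6.67 ± 1.92 CPM with AA147 and 2.14 ± 1.17 CPM with RP22 (SD, n = 3 each), a log2 fold change of 1.64 ± 0.40 (SE; edgeR adjusted p = 0.0084). It was the only member called higher in this test.

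HOXA2, which sets hindbrain and second arch identity in the mouse, had 16, 5 and 10 reads with AA147, 10, 15 and 22 with RP22 and 0 at day 1, and overlapped between the compounds. Its log2 fold change was -0.11 ± 0.47 (edgeR adjusted p = 0.85).

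HOXB1, the marker of a single hindbrain segment, had 0, 0 and 3 reads with AA147, 13, 26 and 29 with RP22, and 0, 2 and 0 at day 1. The compounds did not overlap. HOXB1 fell with AA147, by a log2 fold change of -3.89 ± 0.81 (edgeR adjusted p = 0.0038), and the ratio of RP22 to AA147 was 16.2 with a 95% counting interval of 5.33 to 80.7. All AA147 reads of HOXB1 came from replicate 3. The HOXB1 and HOXA2 windows above both carried a PBX-HOX match, and of these genes only HOXB1 was called.

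HOXB2, its neighbour and a hindbrain gene regulated by HOXB1 in the mouse, had 180, 192 and 267 reads with AA147, 412, 209 and 261 with RP22, and 0, 2 and 0 at day 1. The compounds overlapped. Its level was 26.1 ± 4.66 CPM with AA147 and 26.1 ± 10.3 CPM with RP22, a log2 fold change of 0.00 with a 95% interval of -0.68 to 0.68 (edgeR adjusted p = 1). With library totals alone the log2 fold change was -0.45, and without replicate 1 of both groups it was 0.48 with an edgeR adjusted p of 0.0033.

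HOXB3 had 63, 42 and 75 reads with AA147, 424, 172 and 217 with RP22, and 0, 2 and 0 at day 1. All AA147 libraries lay below all RP22 libraries. HOXB3 fell by 1.71 ± 0.41 on the log2 scale (edgeR adjusted p = 0.011), at 7.33 ± 1.78 CPM with AA147 and 24.2 ± 12.9 CPM with RP22. The same direction held without replicate 1 of both groups, where the log2 fold change was -1.22.

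HOXB4, known as a regulator of blood stem cell expansion, had 20, 20 and 23 reads with AA147, 177, 56 and 59 with RP22, and 0 in each day 1 library. The AA147 libraries were close to each other and below all RP22 libraries. HOXB4 fell by 1.75 ± 0.53 on the log2 scale (edgeR adjusted p = 0.023). The call was lost when any 1 AA147 library was left out, with edgeR adjusted p of 0.08, 0.076 and 0.074, and without RP22 replicate 1 the log2 fold change was -0.92 with an adjusted p of 0.0088.

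HOXC4 had 13, 0 and 1 reads with AA147, 132, 25 and 29 with RP22 and 0 at day 1. It lay below RP22 in all AA147 libraries, yet the log2 fold change of -3.25 ± 1.23 was not called (edgeR adjusted p = 0.061). Without AA147 replicate 1, which leaves 1 read with AA147, it was called, at -6.24 (edgeR adjusted p = 0.029). HOXC4 shares 484 exon bases with HOXC6 and 305 with HOXC5 in GENCODE, and HOXC4 and HOXC6 were the members with fractional counts, so reads may be divided among these genes. The remaining anterior genes, HOXA4, HOXD1, HOXD3 and HOXD4, had at most 9 reads in any library and were not tested.

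**Figure D3:**
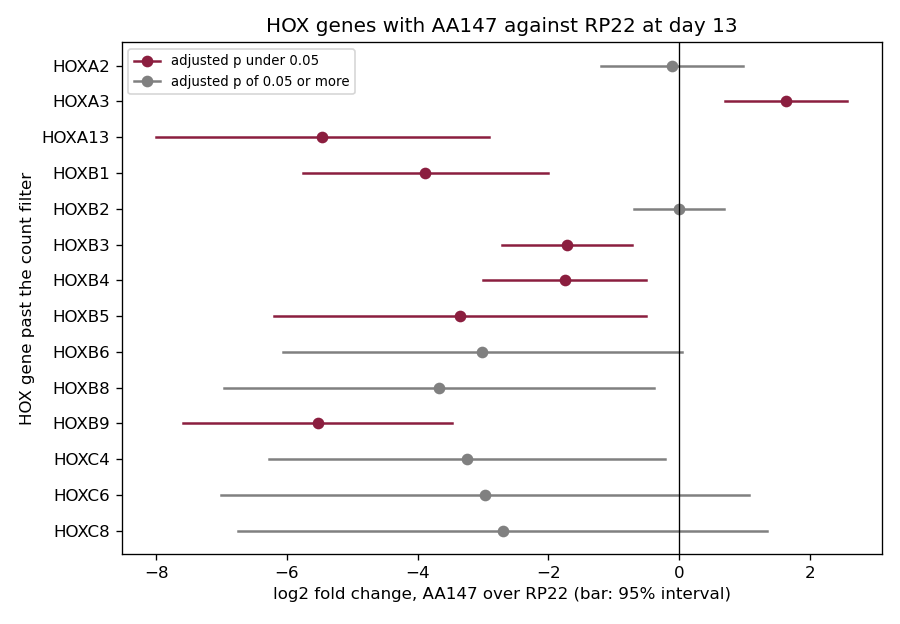
Log2 fold change of AA147 over RP22 (x axis) with its 95% interval for 14 of the 15 HOX genes past the count filter (y axis, by cluster and paralog), in red where the edgeR adjusted p was under 0.05. HOXA3 stands alone to the right at 1.64, HOXA2 and HOXB2 straddle 0, and the central and posterior genes lie between -2.70 and -5.53, several with intervals that reach or come near 0.

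Central genes had few reads with AA147, nearly all in replicate 1, and only HOXB5 of the 5 tested was called. HOXB5, which in the mouse takes part in enteric and vascular development, had 16, 0 and 0 reads with AA147, 135, 49 and 46 with RP22, and 0 at day 1. Only the first AA147 library held reads, and it too lay below RP22. HOXB5 fell by 3.36 ± 1.16 on the log2 scale (edgeR adjusted p = 0.046). This call was lost with DESeq2 (adjusted p = 0.16) and when any single library other than AA147 replicate 1 was left out, with edgeR adjusted p of 0.072 to 0.11. Without RP22 replicate 1 its log2 fold change was -2.60.

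HOXB6 had 26, 0 and 0 reads with AA147, 163, 70 and 59 with RP22, and 0 at day 1. HOXB8, whose loss in the mouse causes excessive grooming, had 16, 0 and 0 reads with AA147, 195, 37 and 54 with RP22, and 0 at day 1. For both genes 1 AA147 library held all reads of its group and no AA147 library overlapped RP22. Their log2 fold changes of -3.01 ± 1.22 and -3.67 ± 1.32 were not called (edgeR adjusted p = 0.079 and 0.054). Without AA147 replicate 1, which leaves 0 reads with AA147, they were called lower (edgeR adjusted p = 0.0063 and 0.043).

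HOXC6, a thoracic-level gene, had 16, 0 and 0 reads with AA147, 144, 16 and 14 with RP22, and 0 at day 1. HOXC8 had 55, 0 and 0 reads with AA147, 362, 53 and 79 with RP22, and 0 at day 1. For both, AA147 replicate 1 overlapped the RP22 libraries and AA147 replicates 2 and 3 were at 0. The log2 fold changes were -2.97 ± 1.61 and -2.70 ± 1.58 (edgeR adjusted p = 0.16 and 0.19), and the interval for HOXC8 ran from -6.74 to 1.34. Without replicate 1 of both groups, which leaves 0 reads with AA147, they were called lower (edgeR adjusted p of 7.3e-05 and 9e-09). That fit leaves out every AA147 read of these genes, so its calls are no further support. HOXA5, HOXA6, HOXA7, HOXB7, HOXC5 and HOXD8 were not tested, and only HOXB7 (8, 0 and 3 reads with AA147, 49, 12 and 8 with RP22) and HOXC5 (2, 0 and 0 with AA147, 31, 2 and 6 with RP22) had more than 10 reads in a library.

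Posterior genes were almost unread with AA147. HOXB9 had 1, 0 and 0 reads with AA147, 41, 14 and 29 with RP22, and 0 at day 1. HOXA13, a gene of the limb tip, hindgut and urogenital tract, had 1, 0 and 0 reads with AA147, 49, 13 and 17 with RP22, and 0 at day 1. Neither gene overlapped between the compounds. HOXB9 fell by 5.53 ± 0.89 and HOXA13 by 5.45 ± 1.09 on the log2 scale (edgeR adjusted p = 0.001 and 0.0033). With 1 AA147 read each, the ratios of RP22 to AA147 were 60.2 (95% counting interval 10.5 to 2406) and 56.6 (9.87 to 2265), wider than the SE conveys. Both calls held when any 1 library was left out, and without RP22 replicate 1 the log2 fold change of HOXA13 was -4.58.

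Among the posterior members that did not pass the filter, HOXA9 had 3, 0 and 0 reads with AA147 and 20, 8 and 9 with RP22. HOXA10 had 3, 0 and 1 reads with AA147 and 39, 7 and 5 with RP22, and HOXA11 had 3, 0 and 0 with AA147 and 14, 5 and 5 with RP22. These 3 genes did not overlap between the compounds. HOXC13 went the other way, with 6, 10 and 9 reads with AA147 and 6, 1 and 6 with RP22, and lay above RP22 after scaling. In all, 24 members were not tested, with 64 reads with AA147 and 336 with RP22 among them, 19 with more reads under RP22, 2 with more under AA147 and 3 with equal reads. HOXC10 was read in RP22 replicate 1 only, with 16 reads. HOXD genes 9 to 13 had at most 3 reads in a library, which is at the limit of this depth.

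Against day 1, members of every class were called higher with RP22, while with AA147 only anterior members passed the count filter. The comparisons with day 1 share the day 1 libraries. Because day 1 counts were near 0, a member could pass the filter only through its day 13 libraries, so the counts that follow describe detection and are no further support. With RP22, 14 members were tested, 13 were called higher and 0 lower, where 36.6% of all 14559 genes were called higher and 35.2% lower (71.9% in either direction). Among the 13 were HOXA3, HOXA13, HOXB1 to HOXB6, HOXB8, HOXB9, HOXC4 and HOXC8. All 14 lay above day 1 in every library, where 38.8% of all genes did. At an unadjusted p under 0.05 no member was lower either, and DESeq2 called 23 higher and 0 lower.

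In size, HOXB2 was 407 times higher with RP22 than at day 1 (95% counting interval 112 to 3364), HOXB3 375 times (103 to 3101), HOXA3 66.4 times (11.5 to 2659) and HOXB1 31.4 times (8.35 to 264). Genes with no day 1 read are given as lower bounds against a floor of 3 reads over the 3 day 1 libraries. HOXC8 was at least 152-fold higher, HOXB4 and HOXB6 at least 89.8-fold, HOXB8 at least 87.9-fold, HOXB5 at least 70.7-fold, HOXC4 at least 57.2-fold, HOXB9 at least 25.8-fold and HOXA13 at least 24.3-fold. HOXC6 was at least 53.5-fold higher but was not called (edgeR adjusted p = 0.052), and was called without RP22 replicate 1 (0.00062). Without RP22 replicate 1 the bounds were 59.5-fold for HOXC8, 58.2-fold for HOXB6, 51.9-fold for HOXB4, 42.8-fold for HOXB5, 41.0-fold for HOXB8, 24.4-fold for HOXC4, 19.4-fold for HOXB9, and 13.5-fold for HOXA13 and HOXC6. The call of HOXC8 was lost without day 1 replicate 1 (edgeR adjusted p = 0.06). The median log2 fold change was 8.64 as fitted and 5.99 with the 9 genes unread at day 1 set to their bounds, against 0.02 for all genes.

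With AA147, 5 members were tested against day 1, and 5 were called higher and 0 lower, where 38.7% of all 13761 genes were called higher and 40.4% lower (79.1% in either direction). HOXA3, HOXB2, HOXB3 and HOXB4 were among them, and all 5 were anterior. All 5 lay above day 1 in every library, where 40.4% of all genes did. HOXB2 was 435 times higher with AA147 than at day 1 (95% counting interval 120 to 3602), HOXA3 223 times (39.5 to 8879), HOXB3 123 times (33.5 to 1020) and HOXB4 at least 28.6-fold. Among members not tested, the posterior gene HOXC13, with 6, 10 and 9 reads with AA147 and 0 at day 1, was at least 11.4-fold higher, and the 140 central reads of AA147 replicate 1 stood against 0 at day 1. No lower member appeared at an unadjusted p under 0.05 or with DESeq2, which called 13 higher and 0 lower. The median log2 fold change of the 5 was 7.28 as fitted and 6.65 with HOXB4 at its bound, against -0.04 for all genes.

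Some genes of the limb and body wall had the library pattern of the central HOX genes, and others of the same list did not. PITX1, a hindlimb transcription factor, had 227, 0 and 1 reads with AA147, 1690, 341 and 420 with RP22, and 1, 0 and 0 at day 1. TBX4, another hindlimb factor, had 61, 0 and 1 reads with AA147, 250, 55 and 83 with RP22, and 0, 0 and 1 at day 1. As for HOXB5, HOXB6, HOXB8, HOXC6 and HOXC8, replicate 1 was the highest library of both compounds and AA147 replicates 2 and 3 were at 0 or 1. These genes were picked after their values were seen. TBX15 went the other way, with 16, 27 and 60 reads with AA147 and 3, 8 and 7 with RP22, and RP22 replicate 1 was not raised for SHOX2, at 93, 104 and 130 reads with RP22. The 6 genes of the limb and body wall list summed to 46.3, 4.83 and 10.1 CPM with AA147, 276, 60.3 and 70.3 CPM with RP22, and at most 0.29 CPM at day 1. PITX1 and TBX4 were not called between the compounds (edgeR adjusted p = 0.16 and 0.24), and of the list 1 was called higher and 3 lower with AA147. Their part in the HOX result was not tested.

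**Figure D4:**
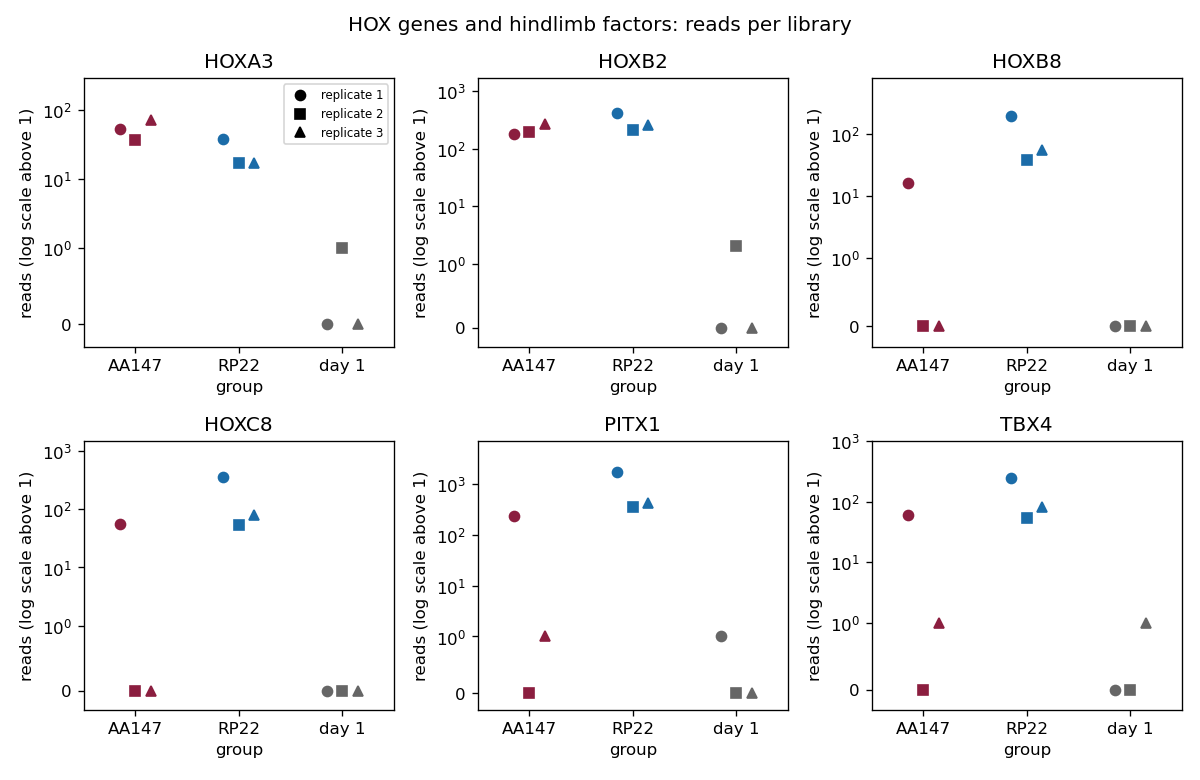
Reads per library (y axis, log scale above 1) of HOXA3, HOXB2, HOXB8, HOXC8, PITX1 and TBX4 in AA147, RP22 and day 1 (x axis), with a symbol per replicate. HOXA3 and HOXB2 are read in every day 13 library, whereas HOXB8, HOXC8, PITX1 and TBX4 have 16 to 227 reads in AA147 replicate 1 and 0 or 1 in replicates 2 and 3.

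Markers of other cell types differed between the compounds too. Forebrain and midbrain genes summed to 2.64 to 5.11 CPM with AA147 and 94.1 to 442 CPM with RP22. Of these, 6 of 8 tested were called lower with AA147. Neuron genes summed to 503 to 534 CPM with AA147 and 1605 to 1655 CPM with RP22 (8 of 10 lower, 1 higher). TUBB3, the gene called higher, made most of the AA147 sum, with 3173, 3190 and 3665 reads. The list median log2 fold change was -6.91. Neural crest genes summed to 193 to 241 CPM with AA147 and 534 to 998 CPM with RP22 (7 of 8 lower), with FOXD3 and PAX7 at 0 in every AA147 library.

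Smooth muscle genes were higher with AA147, at 4334 to 4949 CPM against 574 to 708 CPM with RP22 (6 of 8 called higher, 0 lower). Fibroblast genes summed to 32840 to 42728 CPM with AA147 and 6440 to 22170 CPM with RP22, a sum made mostly by collagens. COL1A1 and COL1A2 rose by 1.97 ± 0.46 and 1.77 ± 0.40 on the log2 scale (edgeR adjusted p = 0.012 and 0.0098), TWIST1 fell by 1.59 ± 0.40 (edgeR adjusted p = 0.01), and the list median was 0.14 with 3 of 10 called higher and 1 lower, a share of higher calls near that of all genes. Kidney and intermediate mesoderm genes summed to 175 to 186 CPM with AA147 and 115 to 127 CPM with RP22 (2 of 4 higher, 0 lower). That sum was made mostly by GATA3, which with LHX1 was called higher, and the list median was 0.07. The untested PAX2, PAX8, SIX2 and WT1 had 2, 4, 6 and 0 reads with AA147 and 21, 38, 11 and 2 with RP22. Pluripotency genes were lower with AA147 (5 of 6, with 1 higher). The part of these cell types in the HOX result was not tested.

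Lists of HOX regulators, cofactors and neighbours were compared between AA147 and RP22, and their counts stand beside the 29.8% higher and 32.2% lower of all genes tested. Genes near 0 with AA147, in these lists and among the markers above, passed the filter through RP22 and could hardly have come out higher. CDX2, a caudal factor that drives trunk HOX genes, had 8, 1 and 0 reads with AA147, 96, 82 and 79 with RP22, and 0, 0 and 1 at day 1. AA147 libraries were all below RP22, and CDX2 fell by 4.31 ± 0.69 on the log2 scale (edgeR adjusted p = 0.0013). Here replicate 1 of RP22 was close to the others, unlike for the central HOX genes. CDX1 had 21, 20 and 17 reads with AA147, 38, 48 and 55 with RP22, and 0, 2 and 2 at day 1, and fell by 0.79 ± 0.25 (edgeR adjusted p = 0.025). Both of the 2 tested caudal and ParaHox genes were thus lower, out of 6 in the table. CDX4, another caudal gene, was not tested between the compounds. It had 1, 0 and 0 reads with AA147, 7, 4 and 16 with RP22, and 23, 43 and 37 at day 1. Unlike CDX1 and CDX2, CDX4 was lower with RP22 than at day 1, at a log2 fold change of -2.05 ± 0.47 (edgeR adjusted p = 0.0046).

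Of 9 tested genes for signals that posteriorize the embryo, 8 were lower and 1 higher with AA147 (median log2 fold change -4.81, against -0.03 for all genes). Of the 9, WNT3A, WNT8A, T, FGF8, FGF17 and TBX6 had 0 to 12 reads over the 3 AA147 libraries and entered the test through RP22, so the count is no support for a shared direction. WNT3A, which maintains tail-end progenitors, had 1, 0 and 0 reads with AA147, 112, 86 and 93 with RP22, and 4, 0 and 2 at day 1. Its AA147 libraries did not reach those of RP22, and it fell by 7.32 ± 0.55 on the log2 scale (edgeR adjusted p = 2.9e-05), a ratio of 209 with a 95% counting interval of 37.1 to 8268. T (brachyury), the mesoderm and tail bud factor, had 0 reads with AA147 and 42, 84 and 105 with RP22, and 1, 0 and 0 at day 1, at least 55.2-fold lower with AA147 (edgeR adjusted p = 0.00037). GDF11, which promotes posterior HOX expression in the mouse, fell by 0.97 ± 0.14 (edgeR adjusted p = 0.00065). WNT5A, a signal for axis elongation, rose by 1.50 ± 0.13 (edgeR adjusted p = 5.5e-05).

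Of 15 retinoid genes tested 4 were higher and 5 lower with AA147 (median log2 fold change -0.29), near the shares over all genes. CYP26B1, which degrades retinoic acid, had 202, 332 and 401 reads with AA147, 29, 66 and 77 with RP22, and 1, 2 and 4 at day 1. RDH10, which makes the precursor of retinoic acid, had 801, 1174 and 1545 reads with AA147, 337, 573 and 545 with RP22, and 108, 169 and 140 at day 1. Every AA147 library was above every RP22 library for both. CYP26B1 rose by 2.92 ± 0.37 and RDH10 by 1.75 ± 0.28 on the log2 scale (edgeR adjusted p = 0.00076 and 0.0024). CRABP1, a retinoic acid binding protein, had 47, 40 and 35 reads with AA147, 306, 768 and 759 with RP22, and 936, 924 and 980 at day 1, and fell by 3.41 ± 0.41 (edgeR adjusted p = 0.00077). The receptor RXRA fell by 0.52 ± 0.09 (edgeR adjusted p = 0.0012). RARB, whose promoter responds to retinoic acid, was not called, at a log2 fold change of -0.31 ± 0.18 (edgeR adjusted p = 0.16).

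**Figure D5:**
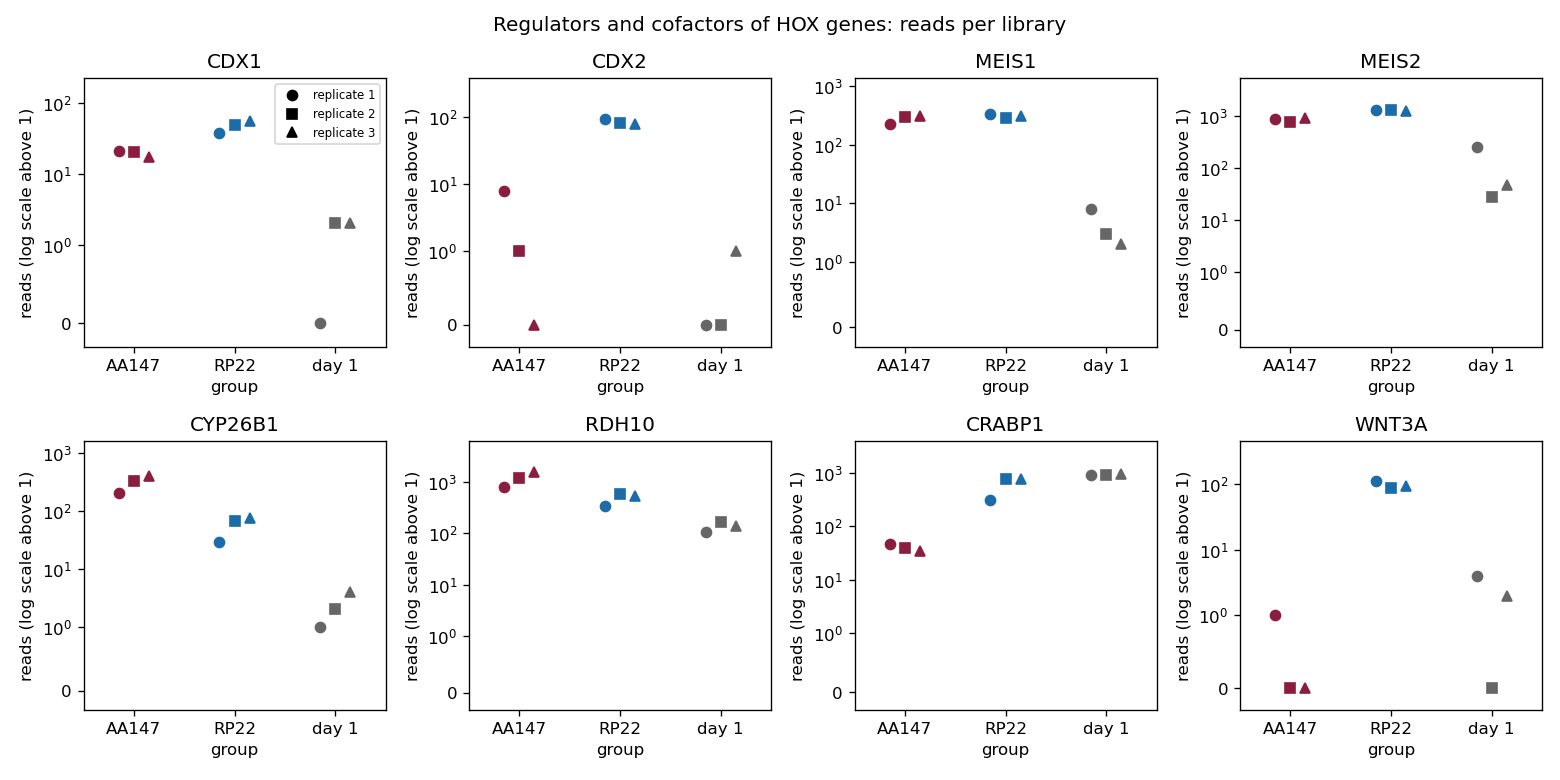
Reads per library (y axis, log scale above 1) of 8 regulators and cofactors of HOX genes in AA147, RP22 and day 1 (x axis), with a symbol per replicate. CDX2 and WNT3A are near 0 with AA147 and between 79 and 112 with RP22, CYP26B1 and RDH10 are higher with AA147 than with RP22, and MEIS1 overlaps between them.

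PBX, MEIS and PKNOX (TALE) proteins bind DNA beside HOX proteins, and among 9 tested 1 was higher and 5 lower with AA147 (median log2 fold change -0.29). MEIS1 had 224, 301 and 305 reads with AA147, 335, 279 and 310 with RP22, and 8, 3 and 2 at day 1. It was not called between the compounds (0.32 ± 0.14, edgeR adjusted p = 0.077). Against day 1 it rose with both, by 6.40 ± 0.31 with AA147 and 6.00 ± 0.31 with RP22 (edgeR adjusted p = 7.7e-08 and 2.4e-06). PBX2 fell by 0.50 ± 0.07 and PKNOX2 by 0.93 ± 0.19 with AA147 against RP22 (edgeR adjusted p = 0.00049 and 0.0031). PKNOX1 rose by 0.43 ± 0.12 (edgeR adjusted p = 0.013), a direction that was not kept with library totals alone, at -0.03.

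Of 10 Polycomb PRC2 genes, 7 were lower and 0 higher with AA147 (median -0.55), among them EZH2, the methyltransferase, at -1.30 ± 0.15, and JARID2 at -1.19 ± 0.14 (edgeR adjusted p = 0.00021 and 0.00024). MTF2 and EED fell by 0.59 ± 0.08 and 0.61 ± 0.09 (edgeR adjusted p = 0.0005 and 0.00065). No PRC2 gene rose, and the log2 fold changes of the 3 not called lay between -0.08 and -0.51. Of 11 Trithorax and MLL complex genes, 1 was higher and 3 lower (median -0.12). KDM6A, a histone demethylase that removes the Polycomb mark, rose by 1.18 ± 0.07 (edgeR adjusted p = 1.1e-05). KMT2A, the MLL methyltransferase that keeps HOX genes on, fell by 0.47 ± 0.12, KMT2B by 0.26 ± 0.08 and WDR5 by 0.23 ± 0.09 (edgeR adjusted p = 0.009, 0.019 and 0.048). Of 8 CTCF and cohesin genes, which partition the clusters, 1 was higher and 6 lower (median -0.37), with RAD21 at -0.63 ± 0.06, SMC3 at -0.67 ± 0.08, NIPBL at -0.41 ± 0.06 and STAG2 at -0.37 ± 0.06 (edgeR adjusted p of 0.0001 to 0.0016).

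Of 9 tested genes flanking the clusters 3 were higher and 3 lower with AA147 (median 0.15), near the shares over all genes. SKAP2, beside HOXA, rose by 1.11 ± 0.16, SNX10 and HIBADH on chromosome 7 fell by 0.64 ± 0.12 and 0.33 ± 0.10, and CBX5, near HOXC, fell by 0.84 ± 0.08 (edgeR adjusted p = 0.00068, 0.0023, 0.02 and 6.9e-05). EVX1, the homeobox gene beyond HOXA13, had 0 reads with AA147, 50, 36 and 52 with RP22 and 0 at day 1, at least 33.0-fold lower with AA147 (edgeR adjusted p = 0.00021). MEOX1, a somite homeobox gene, had 134, 108 and 94 reads with AA147, 95, 49 and 30 with RP22, and 2, 0 and 0 at day 1. MEOX1 rose by 1.41 ± 0.43 (edgeR adjusted p = 0.024). EVX1 and MEOX1 were the only genes tested of 9 related homeobox genes.

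Hindbrain segmentation factors included 2 lower genes and 0 higher among 4 tested (median -0.62). The 12 HOX cluster noncoding RNAs of the list, HOTAIR, HOTAIRM1 and HOTTIP among them, were listed at 0 in every library. Of 591 rows with an antisense symbol only 4 had a read in any library, so a 0 in such a row is no measure of the transcript. Whether reads were counted by strand is not given in the sources used here. HOXA7, which shares 74.7% of its exon bases with HOXA-AS3 on the other strand, is therefore uncertain.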

How the data were processed

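RNA sequencing libraries of 9 cultures were used, 3 for each of AA147, RP22 and day 1, grouped by their labels. The authors deposited 1 table of expected counts per gene and 1 of RPKM values. The submitters' processing notes name GRCh37.p13. Which aligner and counting tool were used, and whether strand was used, is not given in the sources used here. The deposited counts are not scaled to depth and 0.914% of cells above the floor hold fractions, so counts were rounded, values of 0.05 (counts) or 0.002 (RPKM) were read as 0, and 42 symbols on 2 rows were summed. The deposited RPKM values were used only to compare genes and in limma alternatives.

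Each comparison was fitted alone on its 6 libraries with edgeR 4.0.16 in R 4.3.3 (filterByExpr, TMM scaling, robust quasi-likelihood F test), with Benjamini-Hochberg adjustment over all genes tested and a threshold of 0.05. The SE is the log2 fold change divided by the square root of F. CPM of single genes used the TMM scaling of the 6 libraries compared. CPM sums of HOX genes and of lists used the TMM scaling of all 9 libraries. The scales differ: HOXA3 with AA147 averaged 6.67 CPM on the first and 7.13 CPM on the second. Alternatives used library totals, DESeq2 1.42.0, scaling by its size factors alone, counts without the filter, a joint fit of 9 libraries, a replicate term, limma 3.58.1 on log2(RPKM + 0.1) or log2(RPKM + 1), and libraries left out. Ratios against 1 to 3 reads carry 95% counting intervals, and bounds use a floor of 3 reads over a group. Intervals and floors cover counting error only, since reads are not independent molecules. The scripts were tested on simulated data.

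The labels call replicates independent experiments, and no 2 libraries agreed within sampling noise (chi-square per degree of freedom 2.39 to 28.0, the highest for RP22 replicates 1 and 2). Members, lists and tests were chosen with earlier results of these data known, and the PBX-HOX letters were set after promoter sequences were seen. Named genes were the members, those with a mean of 5 CPM or more in a group given library by library, and per list up to 4 genes past the test between AA147 and RP22 with the smallest adjusted p and 5 CPM or more in the higher group. CDX1, EVX1, MEIS1, MEIS2, RARB, PITX1, TBX4, TBX15, SHOX2, COL1A1, COL1A2, TWIST1, FOXD3 and PAX7 were named after their values were seen. So were CDX4, TUBB3, GATA3, LHX1, PAX2, PAX8, SIX2 and WT1. Promoter windows and gene overlaps come from GRCh38 tables and were matched by symbol, never by converted coordinates. Results for some genes are not reported here by name, though counts and sums include them.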

Additional observations from a re-analysis of the deposited data

How the results depend on the processing

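Between AA147 and RP22, the count of HOX genes called lower, 6 as reported, was 9 with library totals, 8 with DESeq2, 8 without a count filter, 6 with DESeq2 size factors and 6 with all 9 libraries in 1 fit. It was 17 with limma on log2(RPKM + 0.1), 14 on log2(RPKM + 1) and 17 on log2(RPKM + 0.1) without a filter, where more members enter the test (27 or 37 in place of 15). It ranged from 4 to 8 when 1 library was left out. Without replicate 1 of both groups it was 11, and the count higher was 2 (HOXA3 and HOXB2). That fit leaves HOXB5, HOXB6, HOXB8, HOXC6 and HOXC8 with 0 AA147 reads. The count higher was 1 in each other alternative. With a replicate block the count lower was 11. Same-numbered AA147 and RP22 libraries had correlated deviations of 0.232, 0.178 and 0.0913, AA147 replicate 3 correlated best with RP22 replicate 2 (0.164), and the labels do not pair the numbers, so the block stays an alternative. For RP22 against day 1, the count higher, 13 as reported, was 23 with DESeq2, 20 without a filter, and 24, 20 and 24 with the limma fits, with 14 to 15 when 1 library was left out and 14 with the block. For AA147 against day 1, the count higher, 5 as reported, was 13 with DESeq2, 9 without a filter, 8 with limma on log2(RPKM + 0.1) and 8 without its filter, and 5 when any 1 library was left out. No HOX gene was called lower than at day 1 in any alternative run. PKNOX1 was the only called gene named here to change sign, at -0.0259 with library totals and -0.0168, -0.0159 and -0.0168 with the limma fits (adjusted p of 0.83 to 0.9). With library totals the median of all genes between AA147 and day 1 was -0.48, with 3866 higher and 7416 lower against 5323 and 5559 in TMM scaling. Depth limits HOXD genes, with at most 9 reads in a library, and 24 members could not be tested between the compounds. Apart from the limma fits, where the RPKM scaling also differs, the cause of these shifts was not tested.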
